A study of Mus musculus with 2 samples.

Results

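The 10 genes described here encode the proteins that fill and organise the axons and dendrites of neurons. They are 4 neurofilament genes (Nefl, Nefm, Nefh and Ina) and 6 genes of microtubule-associated proteins, or MAPs (Map1a, Map1b, Map2, Map4, Mapt and Map6). They were taken by name from 43346 genes, though with earlier results of these data known, and all 10 were found. RNA was measured in 2 libraries of a single group, labelled biological replicates 1 and 2. Each was made from 50 pooled pyramidal neurons of cortical layer 5, cut out by laser capture and labelled as wild type, male and aged 8 months. The labels give the strain as B6NCrl in one place and as C57Bl5 or C57Bl6 in others, and an antibody field reads Control. No second condition was measured. Both libraries carry the same donor identifier, so the spread between them may be technical, and with 1 group there is no test between conditions.

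Neurofilaments are the intermediate filaments of neurons. The light, medium and heavy subunits (genes Nefl, Nefm and Nefh) and α-internexin (Ina) assemble into mixed filaments that set the calibre of large axons. Large projection neurons of layer 5 are known for heavy neurofilament staining. MAPs bind along microtubules. MAP2 is known as a protein of dendrites and cell bodies, tau (Mapt) as one of axons, and MAP1A and MAP1B as long proteins cut into heavy and light chains. MAP6 (also called STOP) is known for keeping microtubules stable in the cold, and MAP4 as the widely expressed relative of tau and MAP2. The tail of tau, MAP2 and MAP4 holds microtubule-binding repeats, 3 or 4 of them in tau and MAP2. In each, an additional repeat comes from an exon that can be spliced in or out.

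That exon is shown for Map2 and Map4 because the transcript results below refer to it. It is 93 bases long and in frame in each. The sequences are from GENCODE M21 on GRCm38, 5′ to 3′, and capitals mark the 59 positions at which both have the same base (63.4%).
Map2, chr1:66431527-66431619, plus strand: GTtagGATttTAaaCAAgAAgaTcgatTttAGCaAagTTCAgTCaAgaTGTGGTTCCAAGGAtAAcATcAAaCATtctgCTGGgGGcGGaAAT
Map4, chr9:110072613-110072705, plus strand: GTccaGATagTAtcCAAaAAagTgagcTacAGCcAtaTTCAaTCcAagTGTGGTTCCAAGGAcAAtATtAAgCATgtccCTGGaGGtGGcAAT

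Where Map2 transcripts lack this exon, its neighbours are joined directly. The junction is shown because a read across it tells the forms apart, with the downstream exon in capitals (20 bases on each side, the outermost at chr1:66425509 and 66433533, plus strand).
Map2 junction without the exon: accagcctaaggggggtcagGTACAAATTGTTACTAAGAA

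Tau differs further at its start, where 2 exons of 87 bases each can be added. They are shown because the leading Mapt transcripts differ in them. Capitals mark codons of the acidic residues aspartate and glutamate, 7 of the 28 complete codons in the exon nearer the start and 5 of 28 in the other.
Mapt, chr11:104287123-104287209, plus strand: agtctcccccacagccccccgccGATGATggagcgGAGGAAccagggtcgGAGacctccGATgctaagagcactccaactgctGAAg
Mapt, chr11:104289908-104289994, plus strand: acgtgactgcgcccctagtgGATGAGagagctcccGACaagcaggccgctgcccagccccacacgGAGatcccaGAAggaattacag

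The libraries held 24171434 and 27946180 estimated reads. All 8 marker genes of glutamatergic and layer 5 neurons stood at 1 TPM or more in each library. TPM is a level per transcript length scaled to the same total in every library. The summed level of the 8 was 385 TPM in replicate 1 and 511 TPM in replicate 2. Every oligodendrocyte, astrocyte and erythroid marker of the lists below also reached 1 TPM in each library. Markers of other cells were also present. The summed level of 7 interneuron markers was 3350 TPM in replicate 1 and 1297 TPM in replicate 2, that of 6 oligodendrocyte markers 487 and 621 TPM, of 6 astrocyte markers 351 and 390 TPM, of 6 microglial markers 125 and 47.2 TPM and of 5 endothelial markers 106 and 93.02 TPM. That of 5 erythroid markers was 7.59 and 384 TPM. Oligodendrocytes and interneurons are also known to express several of the 10 genes, and how much of their level came from cells other than pyramidal neurons was not tested.

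All 10 genes were well expressed in both pools. Nefl, the light subunit, was highest in the mean at 210 TPM and Map6 lowest at 33.1 TPM. Nefl, Map1b, Mapt, Nefm and Map2 followed each other from 210 down to 124 TPM, and each overlapped the next in its values over the 2 libraries. Ina and Map4 came next at nearly the same level and overlapped. Map1a stood below these, and Nefh and Map6 lay lowest and overlapped each other. Map2 did not overlap Ina, Map4 did not overlap Map1a, and Map1a did not overlap Nefh.

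**Figure D1:**
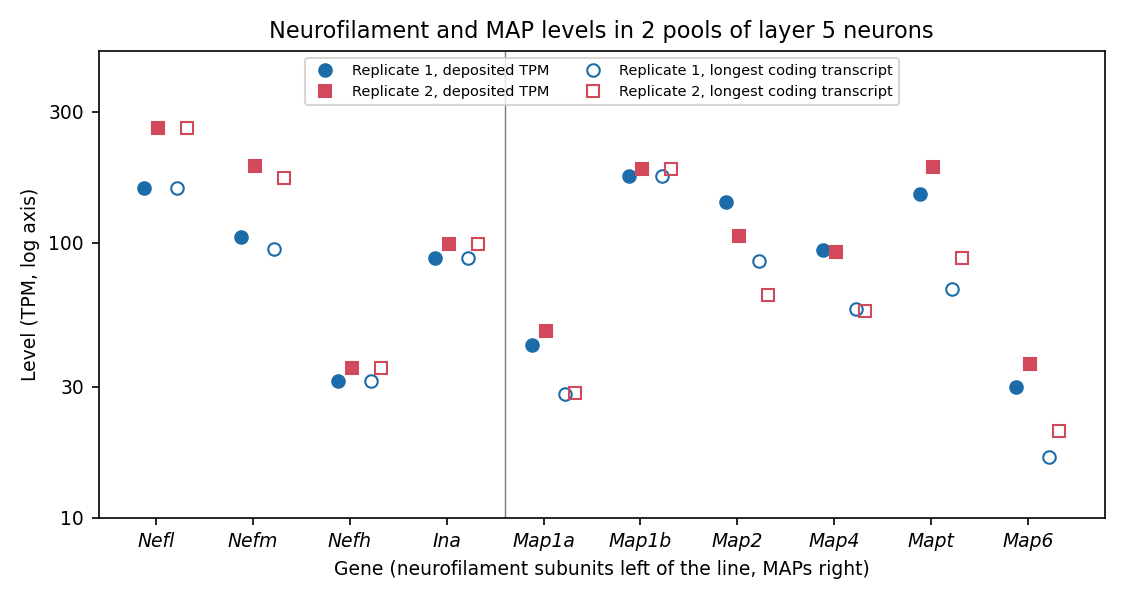
Level of each gene in TPM (log axis) in the 2 libraries. Filled points are deposited values and open points divide the same reads by the length of the longest protein-coding transcript, which leaves Nefl, Nefh, Ina and Map1b where they were and lowers Mapt from 170 to 78.3 TPM in the mean.

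Among the neurofilament genes the light subunit led and the heavy subunit was lowest. Nefl (chromosome 14, 68083863 to 68089095) had 158 TPM in the library of replicate 1 and 261 TPM in that of replicate 2 (210 ± 73.0, SD, n = 2), which placed it 811th and 492nd among 21474 protein-coding genes. Nefm, the medium subunit (chromosome 14, 68082590 to 68124846), stood at 105 and 191 TPM (148 ± 60.9, SD, n = 2). Both were lower in replicate 1 than in replicate 2, and their values overlapped those of each other. Ina (chromosome 19, 47014698 to 47025327) stood at 88.2 and 99.1 TPM (93.6 ± 7.69, SD, n = 2), below both in each library. Nefh (chromosome 11, 4938754 to 4948064) stood at 31.4 and 35.1 TPM (33.2 ± 2.65, SD, n = 2), ranks 3285 and 3050, and was the lowest of the neurofilament genes in each library.

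The heavy subunit differs from the others in its long tail. The coding sequence of Nefh gives 1090 residues with 51 Lys-Ser-Pro motifs, the sites at which neurofilament tails are known to be phosphorylated. Nefm gives 848 residues with 4 such motifs, and Nefl (543 residues) and Ina (501 residues) have 0. The subunit with most of these motifs thus had the lowest RNA level.

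Expressed as shares of the summed neurofilament TPM, Nefl held 41.3% and 44.5% in the 2 libraries, Nefm 27.5% and 32.6%, Ina 23.0% and 16.9%, and Nefh 8.20% and 5.99%. Nefl exceeded Nefh 5.04-fold in replicate 1 and 7.44-fold in replicate 2, a log2 ratio of 2.61 ± 0.40 (SD, n = 2). It exceeded Nefm 1.5-fold and 1.37-fold, a log2 ratio of 0.52 ± 0.10. The order Nefl, Nefm, Ina, Nefh was the same in both libraries. These are ratios of RNA, and protein was not measured.

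The neurofilament genes have little transcript diversity in the annotation used. In replicate 1, the only library whose transcript table was used here, Nefl, Nefh and Ina each had a single transcript and Nefm had 2, of which Nefm-201 held 99.8% of the TPM. Nefl and Nefm are neighbours on opposite strands, and the gene interval of Nefm contains that of Nefl. The posterior SD of the read estimate, which grows where reads could belong to more than 1 gene, was 2.03 reads for each of them in replicate 1 and 3.31 reads for each in replicate 2. The largest of these is 0.0298% of the gene's reads. Ina overlaps Nt5c2 at its start, with posterior SDs of 3.57 and 4.08 reads for each gene.

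Among the MAP genes Map1b and Mapt led in the mean. Map1b (chromosome 13, 99421446 to 99516540) stood at 175 and 186 TPM (181 ± 7.67, SD, n = 2), from a single annotated transcript, and it had the most reads of the 10 genes, 41208 and 48987. Map1a (chromosome 2, 121289600 to 121310832) stood at 42.7 and 47.8 TPM (45.3 ± 3.62, SD, n = 2). Map1b exceeded its relative Map1a 4.11-fold and 3.89-fold, a spread far smaller than the difference. MAP1B is known as the form of developing neurons and MAP1A as the form of mature ones.

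By TPM, Map2 and Mapt moved in opposite directions between the pools. For Mapt the size of the difference depended on the scaling, as given below for spike-in totals. Map2 (chromosome 1, 66175273 to 66442583) had 141 TPM in the library of replicate 1 and 106 TPM in that of replicate 2 (124 ± 25.3, SD, n = 2). Mapt (chromosome 11, 104231390 to 104332090) stood at 150 and 189 TPM (170 ± 27.2, SD, n = 2). By deposited TPM Mapt was above Map2 in both, 1.06-fold in replicate 1 and 1.79-fold in replicate 2, a difference within the spread (log2 ratio 0.46 ± 0.53). Divided by the longest protein-coding transcript, the order turned in replicate 1, with Mapt at 68.1 TPM and Map2 at 86.1 TPM, but not in replicate 2, with 88.5 and 64.6 TPM. Map2 was below Map1b in both libraries, with a log2 ratio of -0.56 ± 0.36.

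Map4 had nearly the same level in both pools, and Map6 was low in both. Map4 (chromosome 9, 109931460 to 110083955) stood at 94.1 and 92.3 TPM (93.2 ± 1.29, SD, n = 2), the smallest relative spread of the 10 genes. Map6 (chromosome 7, 99267447 to 99337137) stood at 29.9 and 36.4 TPM (33.1 ± 4.62, SD, n = 2). The median of the 4 neurofilament genes was 96.7 and 145 TPM and that of the 6 MAP genes 118 and 99.0 TPM. The difference of the medians on log2(TPM + 1) was -0.26 in replicate 1 and 0.48 in replicate 2 (0.11 ± 0.52, SD, n = 2), so neither group stood above the other beyond the spread.

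The levels of 5 MAP genes depend on which transcript lengths the reads are divided by. TPM averages the length over a gene's transcripts, and short or partial models lower that average. Dividing instead by the longest protein-coding transcript, a choice made after seeing the data, gave 78.3 TPM for Mapt, 75.3 for Map2, 57.1 for Map4, 28.3 for Map1a and 18.7 for Map6 in the mean, 2.17, 1.64, 1.63, 1.6 and 1.77 times lower than the deposited levels. Nefl, Nefh, Ina and Map1b were unmoved and Nefm fell 1.11 times, to 134 TPM. The longest coding model of Map4, Map4-201 of 6084 bases, itself had 0 reads in replicate 1. The 57.1 TPM of Map4 is thus a rescaled gene level and not the level of that transcript. On that scale Ina stood above Mapt and Map2, and Nefh above Map1a, in each library. The neurofilament minus MAP difference of medians rose from 0.11 to 0.82, and the Map2 to Map1b log2 ratio fell to -1.28.

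The transcripts of Map1a show how this arises in that gene. In replicate 1 the full-length coding transcript Map1a-201, 11825 bases long, held 56.2% of the gene's TPM and 85.0% of its reads. The noncoding transcript Map1a-204, 411 bases long, held 33.3% of the TPM but 88.7 of the 6620 reads, or 1.34%. The coding transcripts together reached 28.5 TPM. The deposited 42.7 TPM of Map1a in this library is therefore 33.3% noncoding by TPM and 98.7% coding by reads. The end of Map1a also overlaps Ppip5k1 on the opposite strand, which had 1071 and 1436 reads.

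**Figure D2:**
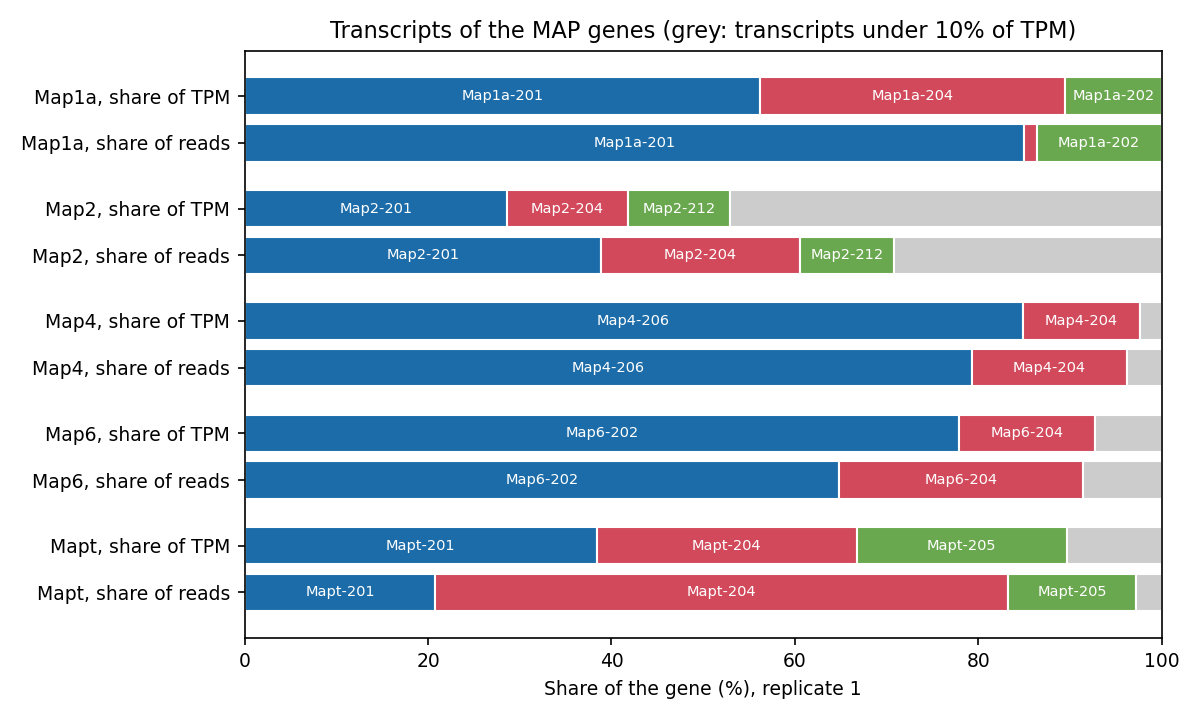
Share of each transcript in its gene in replicate 1, by TPM and by estimated reads, for the 5 MAP genes with more than 1 transcript. Map4-206 leads Map4 on both measures, with 84.8% of TPM, while Map1a-204 falls from 33.3% of TPM to 1.34% of reads.

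More Map2 RNA was assigned to short forms than to the long form. The high molecular weight forms MAP2A and MAP2B contain a stretch encoded by an exon of 3741 bases (chromosome 1, 66412407 to 66416147), which the short form MAP2C lacks. The long transcript Map2-204, encoding 1828 residues, held 13.2% of the TPM and 21.7% of the reads in replicate 1. The leading transcript was the short Map2-201, encoding 467 residues, at 28.6% of TPM and 38.8% of reads. The 6 complete short transcripts together held 42.4% of TPM and 58.1% of reads.

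MAP2C is known as the form of immature neurons. The long model has 184 bases after its stop codon, while Map2-201 has 3577, so reads from that distal stretch were assignable to short models but not to Map2-204. Counting every Map2 model that overlaps the long exon, complete or not, gave 28.3% of TPM and 27.9% of reads, still below the complete short models. The part that the unequal 3′ ends play in the shares was not tested. Individual short models were poorly separated: Map2-201 had a posterior SD of 674 on 4119 reads and Map2-202 of 599 on 716 reads. A retained-intron transcript, Map2-212, held 11.1% of the TPM. The antisense gene Gm10558 lies inside Map2 on the opposite strand and had 1029 and 857 reads in the 2 libraries. The posterior SD was 0 reads for both genes in each library, so the estimate showed no reads shared between them. Whether strand was used in counting is not stated, so reads of the pair may still not be separable by strand.

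The 93-base exon printed above was nearly missing from complete Map2 transcripts. The 2 complete models with it held 0.32% of TPM and 47.2 estimated reads, with a posterior SD of 77.2 reads on the one that had any, so they could not be told from 0. The 5 complete models without it all contain the junction printed above and held 55.3% of TPM and 8414 reads. The short form of MAP2 with 4 repeats, known as MAP2D, was thus not detectable in replicate 1 by this estimate. The only complete long model, Map2-204, lacks the exon, so a long form with 4 repeats could not be estimated.

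For Mapt the corresponding 93-base exon gave the opposite picture, but the annotation fixes it. All 5 complete Mapt models contain the exon, and together they held 90.3% of the TPM and 97.9% of the reads, or 97.1% of the TPM of coding models. The 3 coding models without it are incomplete ends and held 2.68%. No complete model with 3 repeats is in the annotation, so these values do not measure a ratio of 4-repeat to 3-repeat tau. Mapt and Map2 both had every transcript at the same length in the annotation used for counting and in the one used here for exons.

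The Mapt forms did differ in the 87-base exons. Mapt-201, which has both and encodes 430 residues, held 38.4% of the TPM. Mapt-204 and Mapt-205, which have neither and encode 372 and 390 residues, held 28.3% and 22.9%. Complete models with both exons summed to 39.1% of TPM and 21.4% of reads. Those with neither were assigned more on both measures, 51.2% and 76.4%. Mapt-204 alone has a long end of 3906 bases after the stop codon against 35 in Mapt-201 and 251 in Mapt-205, and it took 62.4% of the reads. Among complete models, reads from that long end were thus assignable only to one with neither exon. The part that this plays in the shares was not tested. No complete model carries only 1 of the exons. The 2 models with the large additional coding exon of big tau, the form of tau known from peripheral neurons, held 0.68% of the TPM and 44.0 reads.

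Most Map4 RNA was assigned to a transcript with a short coding sequence. Map4-206 held 84.8% of the TPM and 79.3% of the reads (5459 reads, posterior SD 3.49). It covers 4 exons in the upstream part of the gene (chromosome 9, 109931800 to 110005739), encodes 99 residues, and ends in a stretch of 2989 bases after its stop codon. None of its exons overlaps one of Map4-204 (0 shared), the next transcript at 12.8%, which lies downstream (110052048 to 110083946), encodes 933 residues and carries the 93-base repeat exon. The 3 models with that exon together held 15.2% of the Map4 TPM, or 14.3 TPM. The transcripts with the repeat exon were thus far below the 94.1 TPM of the gene in this library. Map4-206, the only listed model without that exon, ends upstream of it (exon start 110072613). These values therefore do not measure how often the exon is spliced in. A further 2 Map4 models were listed under other gene identifiers, with 20 and 17.2 reads, and are not in these sums. The posterior SD of the second, 29.03 reads, equals that of the Map4 gene. The 4 Map4 models differ in length between the annotation releases, so residues and exon ends are those of the later one.

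Map6 also had a short leading form. Map6-202, encoding 306 residues, held 77.9% of the TPM and 64.8% of the reads. Map6-204, encoding 568 residues, held 14.8%. Map6-201, which encodes the 906-residue form known from neurons as N-STOP, held 6.84% of the TPM and 8.48% of the reads, 136 in number. Map6 had the fewest reads of the 10 genes, 1605 in replicate 1.

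None of the 10 genes differed 2-fold between the pools. Of 9189 genes at a mean of at least 10 CPM (reads scaled to library size), 4.47% were at least 2-fold apart in either direction after TMM scaling, and 0 of the 10 were. Nefm was closest to that limit, 1.81-fold higher in replicate 2 (log2 ratio of replicate 1 to 2 of -0.86, 95% exact counting interval -0.90 to -0.82), with 6804 and 13853 reads. Nefl was 1.65-fold higher in replicate 2 (-0.72, interval -0.76 to -0.69). Of all genes at that minimum, 6.57% were at least as far apart as Nefm and 10.5% at least as far as Nefl.

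The other 8 genes lay closer. Map2 was the only one clearly higher in replicate 1, by 1.33-fold (log2 ratio 0.42, interval 0.38 to 0.46). Mapt and Map6 were 1.30-fold and 1.24-fold higher in replicate 2, and Ina and Nefh both 1.12-fold. Map1b, Map1a and Map4 lay within 1.06-fold. The intervals cover counting error of the reads only, since no molecular identifiers were used. The median absolute log2 ratio was 0.24 over the 10 genes and 0.26 over the 9189.

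**Figure D3:**
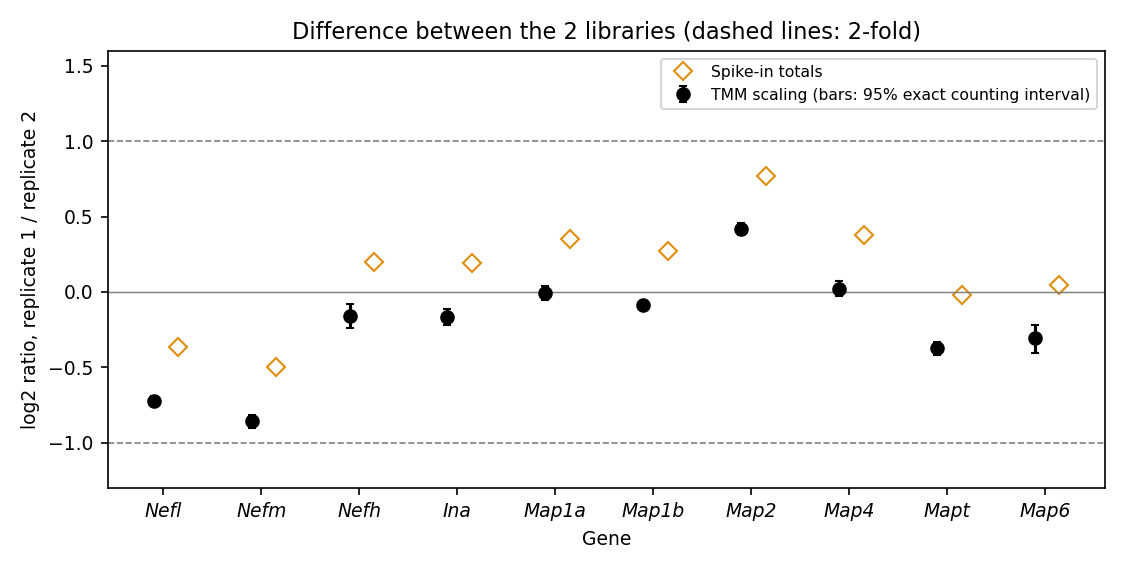
Log2 ratio of replicate 1 to replicate 2 for each gene, after TMM scaling (filled, with 95% exact counting intervals) and after scaling to spike-in totals (open). All points lie inside the dashed 2-fold lines, Nefl and Nefm lie lowest, and Map2 lies highest on both scales.

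Scaling to the spike-in totals moved all genes up together. It shifted the median log2 ratio of genes at the minimum from -0.02 to 0.33 and turned the sign for Nefh, Ina, Map1a, Map1b and Map6, whereas Nefl (-0.36), Nefm (-0.50) and Mapt (-0.02) stayed below 0 and Map2 rose to 0.77. Nefl and Nefm were the lowest and Map2 the highest on either scale. Under TMM scaling 8 of the 10 genes were higher in replicate 2, and under spike-in scaling 3 were. Scaling to total gene counts turned only the sign of Map1a, to 0.02.

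Marker levels also differed between the 2 libraries, which cannot show whether they go along with the levels of the 10 genes. Replicate 2, with more Nefl and Nefm, also had more of the layer 5 genes Fezf2 (20.0 and 44.4 TPM) and Etv1 (15.5 and 93.6 TPM), the 2 of 8 pyramidal markers that were at least 2-fold apart. Slc17a7 (31.9 and 49.3 TPM) and Rbp4 (69.4 and 98.8 TPM) were higher in replicate 2 by less than 2-fold. Others of that list were higher in replicate 1 by less, with counting intervals above 0: Bcl11b (12.2 and 10.2 TPM), Crym (49.7 and 40.4 TPM) and Neurod6 (102.7 and 89.5 TPM). Replicate 2 had less of the interneuron genes Gad2 (31.7 and 11.1 TPM), Sst (2506 and 844 TPM) and Vip (153 and 0.03 TPM), 3 of 6 at the minimum. The 3 microglial markers at the minimum, C1qb, Tyrobp and P2ry12, were at least 2-fold lower in replicate 2, and the 3 erythroid ones, Hba-a1, Hba-a2 and Hbb-bs, were higher. The oligodendrocyte and astrocyte lists had 0 genes 2-fold apart. The part of these differences in the levels of Nefl, Nefm and Map2 was not tested. In a pool, fewer cells of a type and less RNA per cell cannot be told apart.

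All 9 other intermediate filament genes measured were lower than each neurofilament gene in both libraries, with Lmna (20.1 and 18.9 TPM) nearest to Nefh (31.4 and 35.1 TPM). Their median was 1.61 TPM in replicate 1 and 2.21 TPM in replicate 2. The highest were the lamin gene Lmna at 19.5 ± 0.90 TPM (SD, n = 2), the vimentin gene Vim at 4.79 ± 2.37 and Synm, the synemin gene, at 4.66 ± 0.72. Prph, which encodes the peripherin of peripheral neurons and assembles with neurofilament subunits there, stood at 1.05 and 0.86 TPM. Its 35 and 32 reads contrast with the 2444 and 3063 of Nefh, the neurofilament gene with the fewest.

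Genes of other microtubule-binding proteins reached the range of the MAPs. Of 25, 24 stood at 1 TPM or more in each library, with medians of 32.3 TPM in both. The highest was the doublecortin-like kinase gene Dclk1 at 129 and 195 TPM, between Nefm and Nefl in replicate 2, followed by Map7d2 at 106 ± 19.1 TPM (SD, n = 2) and Clip3 at 80.5 ± 12.2. Dcx, the doublecortin gene of migrating young neurons, stood at 10.7 and 5.02 TPM and was 1.98-fold apart. None of the 23 genes at the minimum was 2-fold apart.

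Among 17 genes of kinases that act on tau and neurofilaments the median was 17.0 and 13.9 TPM. Among the higher were Cdk5 at 112 ± 22.7 TPM (SD, n = 2) and Gsk3b at 102 ± 1.79. Gsk3a, the relative of Gsk3b, stood at 1.96 ± 0.33 TPM. Cdk5 needs an activator, and of the activator genes Cdk5r1 stood at 47.3 ± 8.03 TPM and Cdk5r2 at 2.39 ± 0.55. None of the 13 at the minimum was 2-fold apart.

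The opposing phosphatases were expressed at higher levels. All 8 genes of a list of phosphatase subunits and a related enzyme were detected, with medians of 66.3 and 71.9 TPM. Ppp2r1a, the scaffold subunit of phosphatase 2A, led at 232 ± 47.0 TPM (SD, n = 2). Its brain regulatory subunit gene Ppp2r2b stood at 101 ± 12.6 TPM and the catalytic subunit gene Ppp2ca at 98.3 ± 13.1. Of 8 genes of microtubule severing and neurofilament turnover, 6 were detected in each library. The ubiquitin ligase gene Trim2, known to act on the light subunit, led at 53.1 ± 5.90 TPM, followed by the calpain gene Capn2 at 14.7 ± 2.62. None of the 8 and 5 genes at the minimum in these lists was 2-fold apart.

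**Figure D4:**
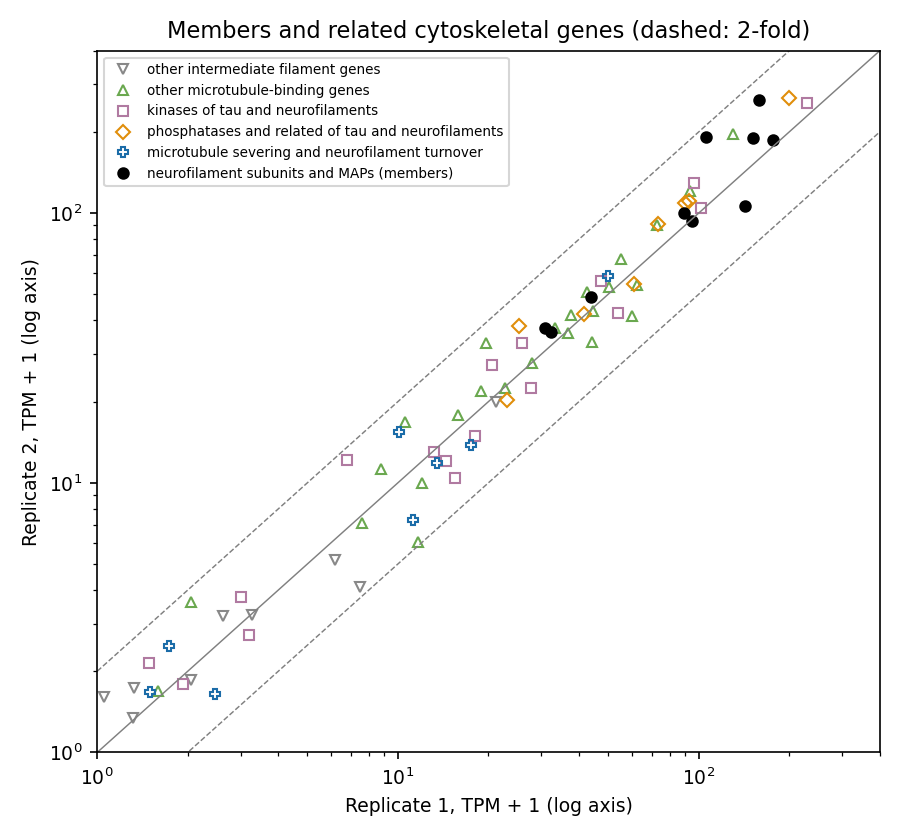
Level in replicate 2 against level in replicate 1 (TPM + 1, log axes) for the 10 neurofilament and MAP genes (filled) and the related genes of the 5 lists (open). All lie between the dashed 2-fold lines, Nefl and Nefm are nearest the upper one among the filled points, and most other intermediate filament genes lie at the lower left.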

How the data were processed

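Expected counts (estimated reads, not normalized), TPM and posterior SDs, a score of how uniquely reads were assigned, are as the authors deposited them per gene for both libraries, and for transcripts in replicate 1 with the percent of the gene's TPM. TPM was scaled by the authors over all entries, spike-ins included. Text files deposited beside the tables name transcriptome alignments on mm10 with GENCODE M4 as the source. Aligner and quantifier, like strand use, were not given in the sources used here. Reads of overlapping and antisense genes may not be separable. Libraries followed a Smart-seq type protocol, per the labels' protocols.

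Symbols, coordinates and exons came from GENCODE M21 (GRCm38), by identifier without version, for 42462 of 43346 genes. The 96 spike-ins and 26248 numeric entries stayed out of library sizes. Rounded counts were scaled with edgeR 4.0.16 under R 4.3.3 (TMM) over genes with at least 10 reads in all. Ratios are log2((CPM + 1)/(CPM + 1)), with exact 95% binomial intervals (scipy 1.17.1, Python 3.11.15). DESeq2 1.42.0 size factors were an alternative. The ratio step was tested on simulated data.

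The members and gene lists were chosen with earlier results of these data known. Named genes were all members, the 3 highest of each list, transcripts at 10% or more, overlapping genes and genes 2-fold apart. Marker lists are given mainly as sums. Gsk3a, Cdk5r1, Cdk5r2, Prph, Dcx, Bcl11b, Crym, Neurod6, Slc17a7, Rbp4 and the smaller transcripts were named after their values were seen. A few genes and 1 exon sequence within this rule are not reported here.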

Additional observations from a re-analysis of the deposited data

How the results depend on the processing

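No gene of the 10 was 2-fold apart between the libraries under any of the 7 alternatives run (other size factors, total counts, spike-in totals, pseudocount of 0.1, other minimums, TPM). The share of all genes that were 2-fold apart went from 4.47% to 10.4% at a minimum of 1 CPM and to 7.30% with spike-in totals. Dividing by the longest protein-coding transcript raised the neurofilament minus MAP median from 0.11 to 0.82 and lowered the Map2 to Map1b log2 ratio from -0.56 to -1.28, and counts not divided by length gave -2.21. The Nefl to Nefh log2 ratio lay between 2.33 and 2.90 under its alternatives. As a share of reads, the leading Mapt transcript held 20.8% and that of Map2 38.8%, and the posterior mean gave 22.6% for the latter. The share of coding Mapt models with the repeat exon was 99.7% by reads, 96.5% by posterior mean and 90.3% over all transcripts. The share of long models among coding Map2 models, 16.0%, was 24.8% by reads and 13.2% over all transcripts. The cause was not tested, except that by construction reads favour long transcripts. Scaling TPM without spike-ins raised all 10 levels, 5 of them by more than their SD. By depth, the widest counting interval of the 10 ratios between libraries was that of Map6, -0.40 to -0.22.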
